A study of Saccharomyces cerevisiae with 51 samples.

Results

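The 40 genes described here encode enzymes of amino acid synthesis in *Saccharomyces cerevisiae*. They were chosen by name from the deposited expression tables and comprise 5 genes of the histidine route, 11 of the aromatic routes, 7 of the lysine route, 7 of serine and glycine, 5 of homoserine and threonine, 3 of proline and 2 of asparagine. All 40 were present in both RNA tables, of 6840 and 6821 genes, and all 40 passed the filter of a mean of at least 1 FPKM (fragments per kilobase of gene, scaled for depth by the authors). In the first table, CEN.PK yeast and a CEN.PK strain with ARP5 replaced by a KAN marker were sampled in continuous culture at 6 phases of the metabolic cycle, with 2 libraries, A and B, at each phase and 24 in all. In the second, asynchronous mid-log BY4741 cells were sampled as a control and after 45 and 90 min of 30 nM rapamycin, with 2 biological replicates in each group. ARP5 encodes an actin-related subunit of the INO80 chromatin remodelling complex, and rapamycin inhibits TORC1, the nutrient-responsive growth kinase. ATAC signal, a measure of open chromatin, was deposited for 12 wild-type and 12 arp5 libraries and had a row for 38 of the 40 genes.

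In continuous culture at limited glucose, budding yeast of suitable strains oscillate together between an oxidative phase (OX), in which respiration and the growth genes peak, a reductive building phase (RB), in which cells divide, and a reductive charging phase (RC) of quiescent-like cells. Most enzymes of amino acid synthesis are under the general control of Gcn4, a transcription factor whose amount is set mainly by translation of its mRNA, and single routes have activators of their own: Lys14 responds to a lysine intermediate, and Bas1 acts on histidine, glycine and purine genes. Lysine is made in yeast from oxoglutarate through aminoadipate, serine is made from a glycolytic intermediate and gives glycine and folate-bound carbon units, and threonine is made from aspartate through homoserine.

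A and B are separate RNA preparations from 1 culture of each genotype. The p-values of tests between cycle RNA libraries therefore measure preparation error and not the spread between cultures. Those of the average over the cycle rest on phase means, and those of rapamycin on biological replicates. A scale factor was chosen for each library to put its low FPKM values on whole multiples of 1 read. With it, 96.1% to 99.2% of the low values did so per cycle library and 95.5% to 97.1% per rapamycin library. These factors gave 5.00 to 9.68 and 9.39 to 13.49 M reads on genes. The least covered value of a member, that of ARO7, rested on 52.7 reads in the cycle table, and in the rapamycin table HIS6 had at least 208 reads. ARP5 read 46.4 to 55.7 FPKM in the wild-type libraries and 0 in 11 of the 12 arp5 libraries, the other at 0.065. In BY4741, which lacks LEU2 and MET17, both were at 0.18 FPKM or below in all 6 libraries. The phase labels of the 2 genotypes did not line up: over 6510 genes, arp5 libraries labelled RC start had the profile most like wild-type OX mid (Pearson r = 0.835 across genes) and correlated at -0.816 with wild-type RC start. The arp5 libraries labelled RC mid were most like wild-type OX late (r = 0.691), those labelled OX mid like RB late (0.682), those labelled OX late and RB start like RC start (0.831 and 0.698), and those labelled RB late like OX mid (0.482). In the deposited table the wild-type columns stand in the order 1 to 6 and the arp5 columns in the order 5, 6, 1, 2, 3, 4. Columns were assigned by name, so every arp5 phase below is the phase as labelled, and results by phase are also given with the arp5 series set beside the wild-type phase 2 steps later.

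In wild type most of these genes rose from RC start to OX mid and then declined. Of the 40, 35 were highest at OX mid, where 37.1% of all 6510 genes tested had their maximum, and 31 were lowest at RC start, where 23.9% of all genes had their minimum. A gene was called cycling when its 6 phase means spanned at least 1 on the log2(FPKM + 1) scale and limma's F test of phase passed an adjusted p of 0.05, and 33 members passed, against 62.1% of all genes. The median range was 2.32 on that scale for the 40 members and 1.34 for all genes. All 40 passed the p threshold alone, and the 7 that were not called spanned less than 1. In cultures of this kind, a smaller share of cells with a transcript and less of it per cell cannot be told apart.

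**Figure D1:**
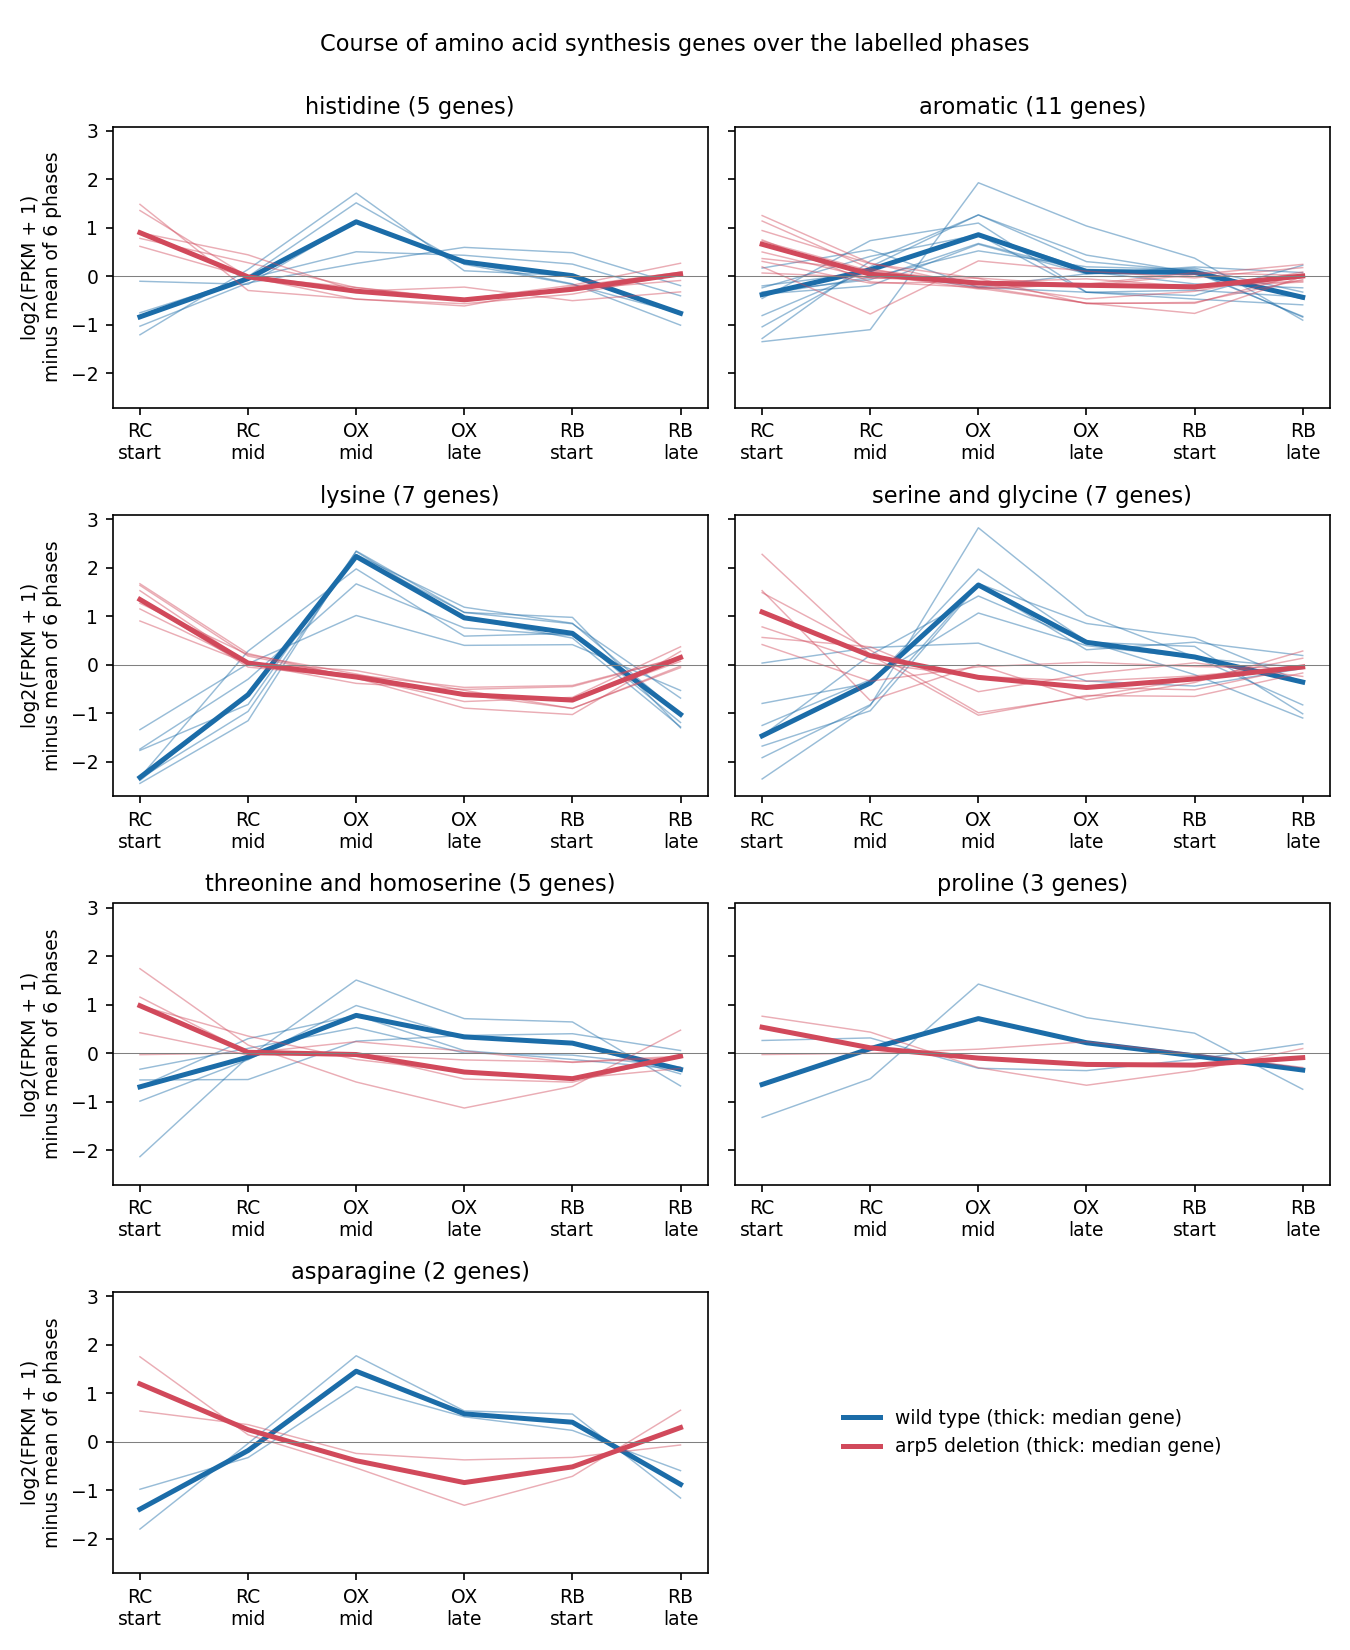
Course of each gene over the 6 labelled phases, as log2(FPKM + 1) minus the gene's mean over the phases (y axis), by route; thin lines are genes (means of libraries A and B), thick lines the median gene, blue wild type and red the arp5 deletion. In wild type 35 of the 40 genes peaked at OX mid, and in the arp5 libraries 36 peaked at the phase labelled RC start.

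The lysine route moved most as a whole: all 7 genes cycled, all peaked at OX mid and were lowest at RC start. Their ranges ran from 2.36 to 4.80 with a median of 4.30. Of all genes 62.1% cycled, 37.1% peaked at OX mid and 23.9% were lowest at RC start. LYS9 and LYS1 encode the saccharopine dehydrogenases that complete the route. LYS9 read 75.5 and 80.1 at RC start, 189 and 195 at RC mid, 2183 and 2193 at OX mid, 887 and 927 at OX late, 803 and 741 at RB start and 253 and 279 at RB late FPKM in libraries A and B. LYS1 (YIR034C, chromosome IX, 419615-420736, build R64) read 62.8 and 48.5 at RC start, 105 and 109 at RC mid, 972 and 955 at OX mid, 373 and 373 at OX late, 289 and 269.6 at RB start and 80.2 and 75.0 at RB late. For both genes the OX mid libraries stood above, and the RC start libraries below, every other wild-type library. LYS4, homoaconitase, had phase means of 14.9, 53.1, 389, 175, 163 and 32.8 FPKM from RC start to RB late, and LYS12, homoisocitrate dehydrogenase, of 76.6, 202, 1905, 898, 714 and 193. LYS20, a homocitrate synthase of the entry step, had 41.4, 256, 832, 317, 331 and 91.9. LYS2, the aminoadipate reductase, went from 15.8 and 16.5 at RC start to 179.9 and 182 at OX mid.

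Of the 7 serine and glycine genes 6 cycled, against 62.1% of all genes. SHM2 (YLR058C, chromosome XII, 257992-259401), the cytosolic serine hydroxymethyltransferase that turns serine into glycine and a folate-bound carbon unit, had the widest range of all 40, 5.18. It read 49.4 and 49.7 at RC start, 144 and 143 at RC mid, 1849.9 and 1821 at OX mid, 522 and 529.7 at OX late, 305 and 273 at RB start and 149.7 and 140.0 at RB late FPKM. The OX mid libraries were more than 3 times as high as any other wild-type library. SHM1, the mitochondrial enzyme of the same reaction, spanned only 0.89, with phase means of 195, 244, 260.2, 151, 141 and 181. SER3 and SER33, the phosphoglycerate dehydrogenases that open the serine route, spanned 3.33 and 3.59, SER1, the aminotransferase, 2.32, and SER2, the phosphatase that completes it, 3.07. GLY1, threonine aldolase, rose from 50.0 and 52.9 at RC start to 386 and 387 at OX mid.

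In the homoserine and threonine route 3 of 5 genes cycled, near the share of 62.1% over all genes, and the range was widest at the entry. HOM3, the aspartate kinase that opens the route, spanned 3.65, HOM2, aspartic semialdehyde dehydrogenase, 1.97, and HOM6, homoserine dehydrogenase, 0.95. The last enzymes, THR1 (homoserine kinase) and THR4 (threonine synthase), spanned 1.48 and 0.86. The proline genes had the same order: PRO1, glutamyl kinase and the entry enzyme, spanned 2.75, PRO2 1.36 and PRO3, which completes proline, 0.67. PRO3 had phase means of 276, 286, 185, 179, 211 and 263 FPKM, so its values at OX mid and OX late were the lowest and not the highest. HOM6 was at 272, 273, 475, 514, 528 and 416 and THR4 at 127, 171, 231, 160.4, 156 and 131. Both asparagine synthetase genes cycled, ASN1 over 3.58 and ASN2 over 2.12.

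All 5 histidine genes cycled, with ranges from 1.26 (HIS5, the aminotransferase) to 2.92 (HIS6, an isomerase in the middle of the route). HIS1, the feedback-regulated entry enzyme, and HIS7, which closes the imidazole ring, spanned 2.13 and 2.35. HIS4, which carries several of the route's activities, was the only member highest at OX late, with phase means of 69.3, 129.5, 171, 216, 200.2 and 125. Of the 11 aromatic genes 8 cycled, and the ranges of the 11 ran from 0.42 to 3.28. The share over all genes was 62.1%. ARO7, chorismate mutase at the branch to tyrosine and phenylalanine, went from 16.1 and 11.9 FPKM at RC start to 142 and 145 at OX mid. In the branch to tryptophan, TRP2 and TRP3, which together form anthranilate synthase, spanned 1.69 and 0.99, and TRP5, tryptophan synthase, 1.28. TRP3 had phase means of 63.3, 81.2, 119, 94.6, 91.1 and 59.3. TRP4, anthranilate phosphoribosyltransferase, had 121, 158, 91.8, 85.7, 81.6 and 126 and was highest at RC mid. ARO1, the enzyme of the middle shikimate steps, was the flattest member at 44.0, 53.9, 43.1, 52.5, 58.1 and 53.4. TYR1 and PHA2, which open the tyrosine and phenylalanine branches, passed the range threshold narrowly, at 1.03 and 1.00. Without library B of wild-type RC start they spanned 0.99 each, and without library B of OX mid 0.98 and 0.96. With a pseudocount of 10 the ranges were 0.88 and 0.84, and under quantile normalization 0.77 and 0.73, so neither call held under those settings.

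In the arp5 deletion 29 of the 40 genes cycled, against 32.3% of all genes, and the median range was 1.41 against 0.74 for all genes. The maximum lay in the libraries labelled RC start for 36 members, where 32.5% of all genes had theirs. The lowest phase was the one labelled OX late for 16 members and RB start for 15, given here without the shares over all genes. The range was smaller than in wild type for 36 of the 40, a share close to that over all genes, of which 89.1% had a smaller range in the deletion. HIS5 (1.26 in wild type and 1.27 in arp5), ARO1 (0.42 and 0.58), TRP4 (0.94 and 1.09) and THR1 (1.48 and 1.76) were the exceptions. The 7 lysine genes all cycled over a median of 2.11 in place of 4.30. SER3 went from 3.33 to 1.12 and HIS6 from 2.92 to 1.09, whereas ASN1 went from 3.58 to 3.06 and GLY1 from 2.89 to 2.48. With a pseudocount of 10, 26 members cycled in arp5. The arp5 ranges of HIS6, TRP4 and ASN2 were then 0.835, 0.998 and 0.975, so these calls did not hold.

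**Figure D2:**
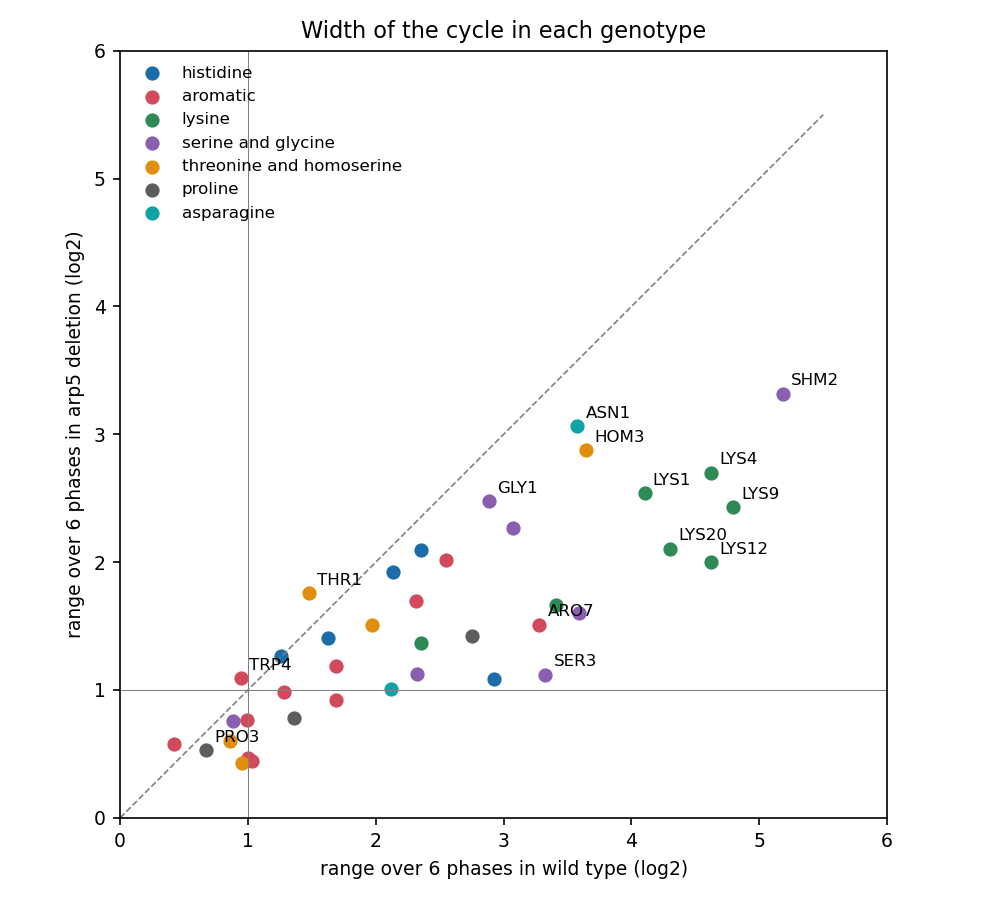
Range of the 6 phase means on the log2(FPKM + 1) scale in wild type (x axis) and in the arp5 deletion (y axis); each point is 1 of the 40 genes, coloured by route, the dashed line marks equal ranges and the thin lines a range of 1. All 7 lysine genes lie under the dashed line and 6 of them far right, with LYS21 at 2.36 and 1.37, LYS12 at 4.62 and 2.00, and THR1 lies above it at 1.48 and 1.76.

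Values by library show the tops and the lows apart. In the arp5 libraries LYS9 read 1099.9 and 1117 at RC start, 392 and 394 at RC mid, 349.7 and 355 at OX mid, 271 and 259.8 at OX late, 212 and 197 at RB start and 374 and 378 at RB late FPKM. Its highest libraries stood between those of wild-type OX late and OX mid, and its lowest were more than 2 times as high as the lowest wild-type libraries. SHM2 read 2108 and 2049.9 at RC start, 502 and 483 at RC mid, 208 and 207 at OX mid, 283 and 267 at OX late, 271 and 273 at RB start and 389.9 and 371 at RB late. Its top was above that of wild type (1849.9 and 1821 there), and its lowest library stood at more than 4 times the wild-type low. LYS1 read 349 and 354 at RC start, 130.5 and 124 at RC mid, 90.1 and 97.2 at OX mid, 78.5 and 67.9 at OX late, 62.0 and 57.5 at RB start and 105 and 110.2 at RB late, with a top under that of wild type and a low like the wild-type low. The other wide members had arp5 phase means, from the phase labelled RC start to RB late, of 319.8, 117, 82.3, 53.2, 48.5 and 121 FPKM for LYS4, 976, 467, 354, 258, 243 and 424 for LYS12 and 369, 139.7, 121, 85.0, 90.4 and 187 for LYS20. HOM3, at a range of 2.88, had 291, 96.9, 56.7, 38.8, 53.1 and 120.1, against 32.3, 137, 415, 239, 228 and 90.6 in wild type.

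The course differed between genotypes (limma F test of the interaction of genotype and phase, with a range of the genotype difference of at least 1) for 39 of 40 members, against 74.0% of all genes. ARO1 was the exception, with a range of 0.97. PRO3 was called but spanned 0.77 under quantile normalization. SHM2 had the widest genotype difference, 8.50, followed by LYS4 at 6.57 and LYS9 at 6.45. The interaction is computed between phases of the same label, so a shift of the labels enters it in full.

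Between libraries of the same label, members were higher in the deletion at RC start and lower at OX mid. At RC start 31 were higher and 0 lower, against 19.2% and 16.9% of all genes, with a median member difference of 1.94 log2 units. At RC mid 8 were higher and 1, TRP4, lower, against 9.92% and 11.1%. At OX mid 0 were higher and 28 lower, against 21.7% and 22.0%, with a median of -1.37. At OX late 0 and 17 were called, against 14.7% and 13.5%, and at RB start 0 and 12, against 10% and 8.69%. At RB late 8 were higher and 0 lower, against 11.3% and 10.9%. Leaving out arp5 RC mid library B raised the count of lower members at RC mid from 1 to 2, and the median of all genes at each of these phases was within 0.03 of 0.

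With the arp5 series set beside the wild-type phase 2 steps later, fewer members passed at the wild-type peak and at its low point. Beside wild-type OX mid, the arp5 libraries labelled RC start had 0 members higher and 4 lower, against 12.5% and 11.5% of all genes. The 4 were HIS6 (log2 difference -1.57 ± 0.11 SE), LYS1 (-1.45 ± 0.09), ARO7 (-1.32 ± 0.12) and LYS20 (-1.17 ± 0.09). SHM2 differed there by 0.18 ± 0.05, ASN1 by -0.01 ± 0.07 and HOM2 by 0.00 ± 0.05. More were called at the low point. Beside wild-type RC start, the arp5 libraries labelled RB start had 11 members higher and 0 lower, against 9.17% and 6.59% of all genes. These were SHM2 (2.43 ± 0.05), SER3 (2.13 ± 0.05), SER33 (1.45 ± 0.05), 6 of the 7 lysine genes, ASN1 and ASN2. The lysine gene that was not called was LYS1, at 0.11 ± 0.09, and no histidine, aromatic, threonine or proline gene was called. LYS21, at 1.02 ± 0.05, was at the threshold. The arp5 libraries labelled OX late correlated more with wild-type RC start (r = 0.831) than those labelled RB start (0.698). The counts at this low point can therefore also hold differences of phase. SER3 read 37.8 and 35.4 FPKM in wild-type RC start and 163 and 163 in arp5 RB start, with no overlap. Its annotated gene (chromosome V, build R64) overlaps SRG1, a noncoding transcript known to repress SER3, and both lie on the same strand, so reads of the overlap cannot be assigned to either.

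The other 4 pairings lie between the low point and the peak. Of these, only arp5 RC mid beside wild-type OX late joins profiles found most alike above. The arp5 libraries labelled OX mid, OX late and RB late were most like wild-type RB late, RC start and OX mid. Those are not the phases set beside them here, so their counts can hold differences of phase. Beside wild-type RC mid, 5 members were higher and 0 lower in arp5 RB late, against 7.37% and 8.06% of all genes. Beside OX late, 0 were higher and 6 lower in arp5 RC mid, against 7.30% and 5.56%. Beside RB start, 0 were higher and 9 lower in arp5 OX mid, against 9.16% and 4.21%. Beside RB late, 1 was higher and 1 lower in arp5 OX late, against 4.69% and 4.22%.

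**Figure D3:**
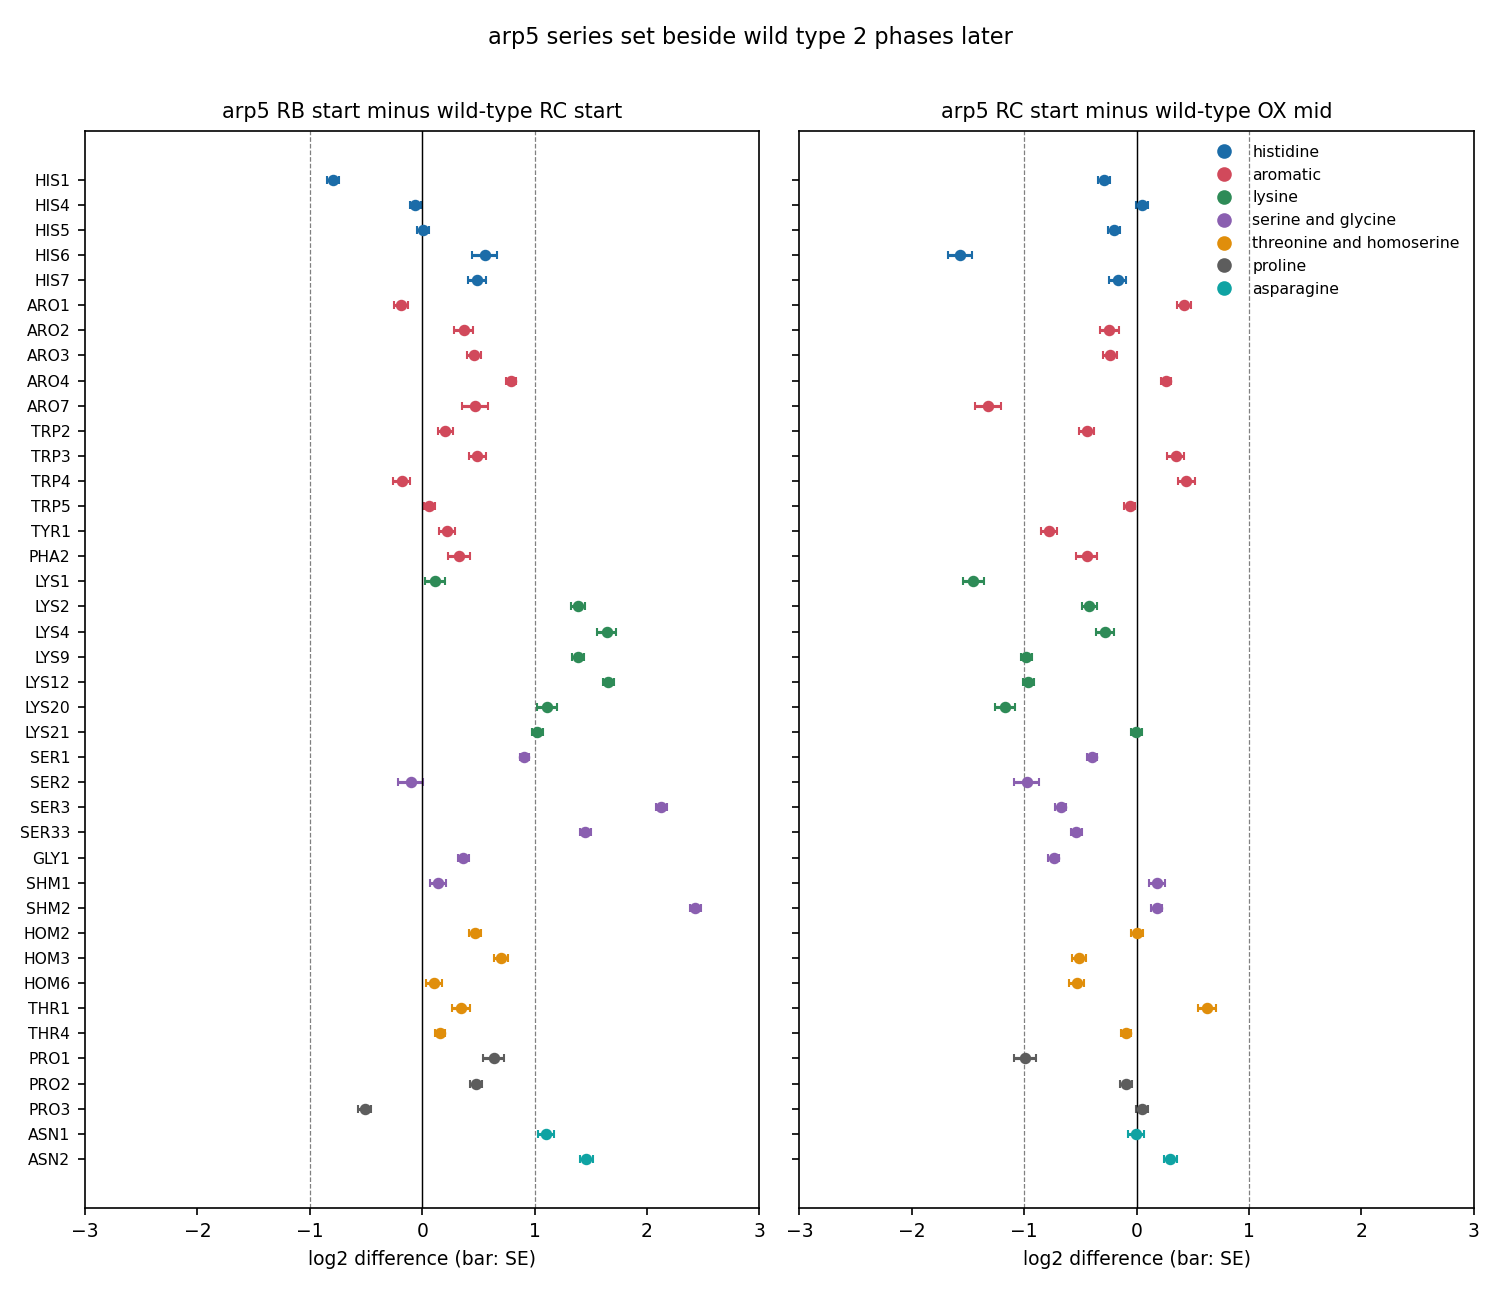
Log2 difference of each gene (rows, coloured by route) between the arp5 libraries labelled RB start and wild-type RC start (left) and between the arp5 libraries labelled RC start and wild-type OX mid (right); bars are standard errors from limma, dashed lines mark differences of 1. On the left 11 genes lie past 1, most of them lysine and serine genes, and on the right 4 lie past -1.

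Averaged over the 6 phases, no member passed the test between genotypes. With the 12 phase means as samples and phase as a block, 0 of 40 were called higher and 0 lower by limma, against 1.01% and 0.507% of all genes. The member counts were also 0 and 0 with the arp5 series moved by 2 phases. With phases as labelled, which holds for the values below, no member had an unadjusted p under 0.05. The smallest was 0.0954, with an adjusted p of 0.428. The median member difference was -0.09, beside 0.01 for all genes. It was -0.50 without RC start, 0.17 without OX mid and 0.03 without OX late. Phases were left out by label. Leaving out RC start removed the phase where 36 members were highest in arp5 and 31 lowest in wild type. The standard errors ran from 0.162 to 1.01 log2 units, so a difference of 1 log2 unit was not detectable in this average for the widest members. The block pairs phases of the same label, so a shift of the labels enters these standard errors. The highest differences were those of ASN2, 0.80 ± 0.42 (SE), SHM2, 0.73 ± 1.01 (SE), SER3, 0.41 ± 0.56 (SE), and TRP3, 0.37 ± 0.23 (SE). ASN2 averaged 160.5 ± 89.4 FPKM over the wild-type phases and 257 ± 78.2 over those of the deletion (SD, n = 6 phases). The lowest were those of GLY1, -0.81 ± 0.66 (SE), LYS1, -0.76 ± 0.79 (SE), HOM3, -0.75 ± 0.80 (SE), and HIS4, -0.59 ± 0.40 (SE). GLY1 averaged 177 ± 119.7 FPKM over the wild-type phases and 96.8 ± 69.7 over those of the deletion, and LYS1 309 ± 344 FPKM over the wild-type phases and 136 ± 108 over those of the deletion.

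At 45 min of rapamycin 4 members rose and 6 fell, near the shares over all genes, which were 11.2% and 13.7% of the 6333 tested, and the median member change was -0.03. At 90 min 18 had risen and 4 fallen, against 18.2% and 16.8%, with a median of 0.78 beside 0.02 for all genes. Between 45 and 90 min 22 rose and 0 fell, against 6.30% and 4.69%. Of the 40, 35 were higher at 90 than at 45 min, and the median change of all genes between these times was 0.008. The 45 and 90 min comparisons share the same 2 control libraries, so their values are set side by side below and not counted together. All changes are relative to the authors' scaling, under which the FPKM of a library summed to 1472120 and 1473023 in the controls, 953306 and 982180 at 45 min and 919609 and 951976 at 90 min. Under quantile normalization the median at 90 min was 1.16, and the counts were 20 higher and 4 lower.

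**Figure D4:**
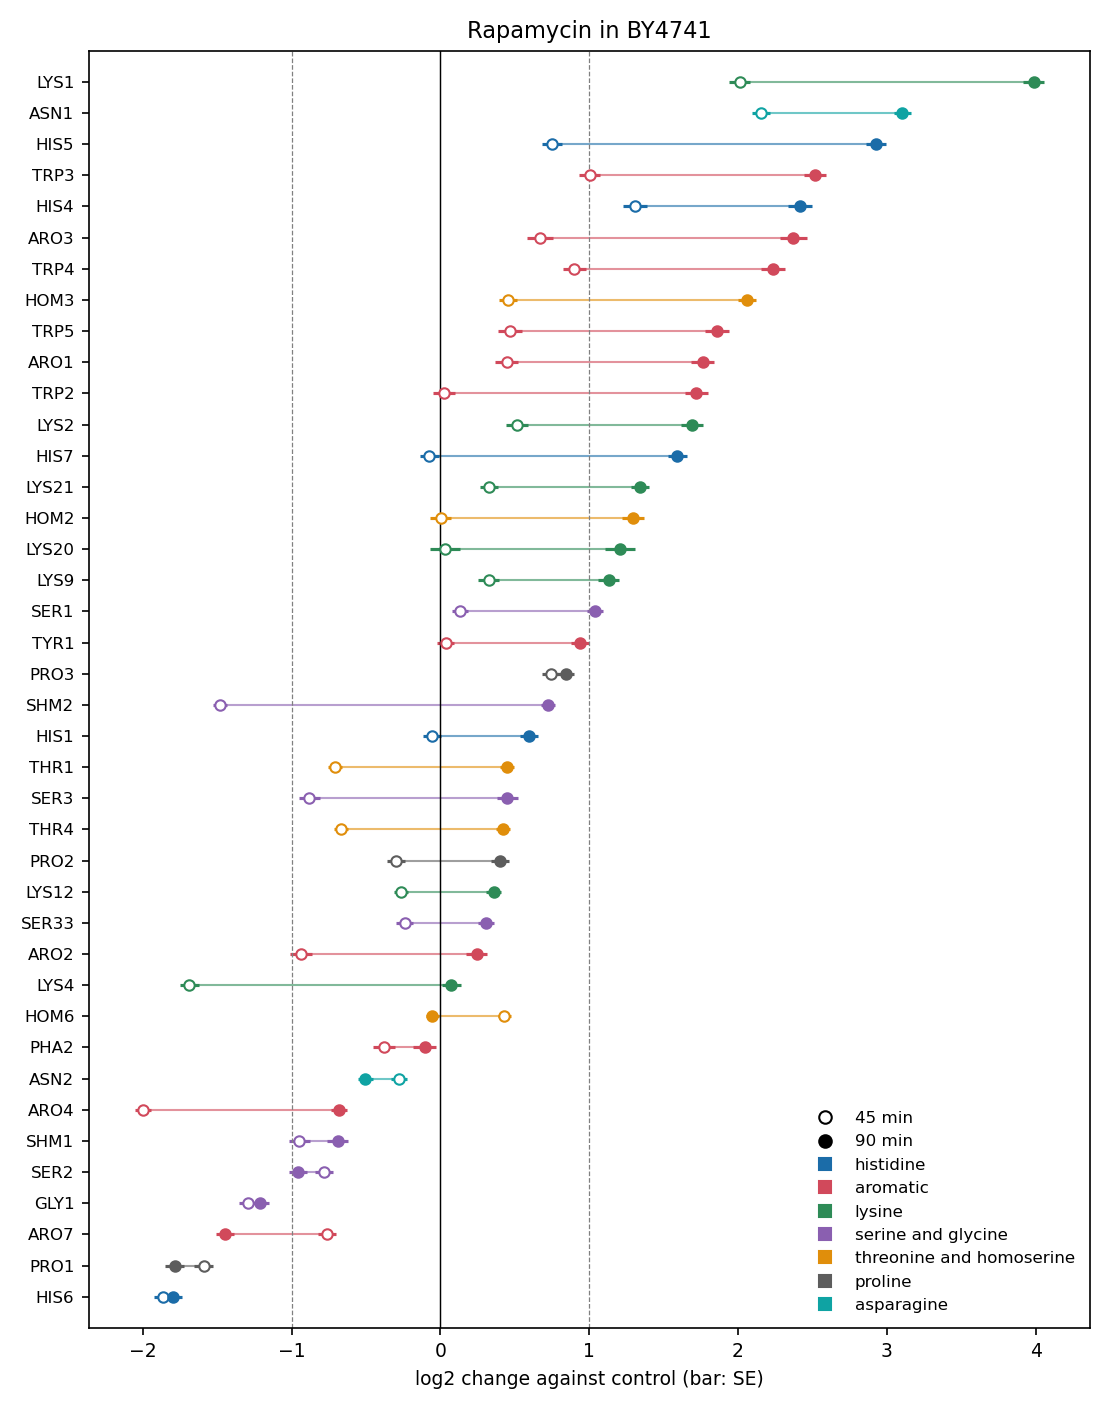
Log2 change on the log2(FPKM + 1) scale against the BY4741 control after 45 min (open circles) and 90 min (filled circles) of rapamycin; genes are ordered by the 90 min value and coloured by route, bars are standard errors, dashed lines mark changes of 1. Filled circles lie right of open ones for 35 of the 40 genes, and the median change of all genes between these times was 0.008.

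The largest rises came from several routes. LYS1 read 62.3 and 60.9 FPKM in the controls, 236 and 268 at 45 min and 963 and 1023 at 90 min, a change of 3.99 ± 0.07 (SE, adjusted p = 7.6e-09) at 90 min. ASN1 (YPR145W, chromosome XVI, 822620-824338) read 467 and 458 FPKM in the controls, 1988 and 2136 at 45 min and 3853 and 4117 at 90 min, a change of 3.10 ± 0.06 (SE, adjusted p = 1e-08). For both genes the groups did not overlap. HIS5 read 185 and 189 FPKM in the controls, 295 and 335 at 45 min and 1395 and 1460.0 at 90 min, with changes of 0.75 and 2.93 ± 0.07 (SE, adjusted p = 3e-08). HIS4 read 154 and 155 FPKM in the controls, 354 and 415 at 45 min and 801 and 856 at 90 min, with changes of 1.31 and 2.42. TRP3 read 135 and 127 FPKM in the controls, 251 and 276 at 45 min and 719 and 793 at 90 min, with changes of 1.00 and 2.52. The 45 min change of TRP3 was at the threshold, and was 0.96 without control replicate 2 and 0.94 without 45 min replicate 4. The 4 members of the tryptophan branch rose at 90 min, TRP2 by 1.72, TRP4 by 2.24 and TRP5 by 1.86. TRP1, a gene of the branch that is not among the 40, was at 0.45 and was not called. HOM3 rose by 2.06 and HOM2 by 1.29, while HOM6, THR1 and THR4 were at -0.06, 0.45 and 0.42.

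Of the lysine genes 5 of 7 rose by 90 min, against 18.2% of all genes. Their changes ran from 1.13 for LYS9 to 3.99 for LYS1, with LYS2 at 1.69. LYS4 and LYS12, which carry out neighbouring steps in mitochondria, were not called at that time. LYS4 read 82.6 and 79.7 FPKM in the controls, 25.6 and 23.4 at 45 min and 84.3 and 86.6 at 90 min, with changes of -1.69 ± 0.06 (SE, adjusted p = 4e-07) and 0.07. It fell below both controls and then returned to their level. LYS12 read 301 and 307 FPKM in the controls, 246 and 259 at 45 min and 385 and 396 at 90 min. SHM2 also fell at 45 min and not at 90 min, with 812 and 809.9 FPKM in the controls, 282 and 297 at 45 min and 1319 and 1362 at 90 min and changes of -1.48 ± 0.05 (SE, adjusted p = 2.1e-07) and 0.72. Its rise from 45 to 90 min, 2.21, was the largest of the 40 for that step, with HIS5 next at 2.18.

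At 90 min 4 members were lower: HIS6, PRO1, ARO7 and GLY1. HIS6 read 95.1 and 98.4 FPKM in the controls, 25.4 and 26.3 at 45 min and 26.5 and 27.8 at 90 min, with changes of -1.87 ± 0.06 (SE, adjusted p = 2.1e-07) and -1.80, while HIS4, HIS5 and HIS7 of the same route rose by 2.42, 2.93 and 1.59. PRO1 read 132 and 129.9 FPKM in the controls, 44.4 and 41.3 at 45 min and 38.6 and 35.9 at 90 min, with changes of -1.59 and -1.79. GLY1 read 481 and 435 FPKM in the controls, 188 and 183 at 45 min and 199 and 194 at 90 min, with -1.30 and -1.22. ARO7 read 183 and 187 FPKM in the controls, 108 and 109.9 at 45 min and 70.8 and 64.3 at 90 min, with -0.76 and -1.45. No treated library of these 4 genes reached a control. In the proline route PRO3 stood at 0.84 and PRO2 at 0.40, neither called. SER2, at -0.96, and SHM1, at -0.69, were under the threshold of 1.

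Of the 5 isozyme pairs, ASN1 with ASN2 and ARO3 with ARO4 had the log2 ratios that moved most between the controls and 90 min of rapamycin. Near-identical copies can share reads, so levels within a pair carry that uncertainty. The asparagine synthetase genes ASN1 and ASN2 had like levels in BY4741 controls, at a log2 ratio of -0.12 ± 0.02 (SD, n = 2), and the ratio was 2.31 ± 0.05 at 45 min and 3.49 ± 0.0049 at 90 min. ASN2 read 512 and 494 FPKM in the controls, 409 and 419 at 45 min and 343 and 365 at 90 min. ARO3 and ARO4, the feedback-inhibited enzymes of the first aromatic step, crossed over. ARO3 read 187 and 166 FPKM in the controls, 264 and 299.9 at 45 min and 872 and 965 at 90 min, with a change of 2.37 ± 0.09 (SE, adjusted p = 3.1e-07). ARO4 read 648 and 618 FPKM in the controls, 152 and 163 at 45 min and 388 and 401 at 90 min, with -2.0 ± 0.06 (SE, adjusted p = 9.3e-08) at 45 min and -0.68 at 90 min. Their log2 ratio ARO3/ARO4 went from -1.84 ± 0.07 to 1.22 ± 0.07, so the gene with the higher FPKM in the controls had the lower one after rapamycin. In every cycle library ARO4 was the higher, with 769 and 804 at wild-type OX mid beside 168 and 163 for ARO3. Differences of response within a pair were not tested.

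LYS20 and LYS21, the homocitrate synthases, both rose at 90 min, by 1.21 and 1.34, with LYS20 at 357 and 286 FPKM in the controls, 336 and 317 at 45 min and 751 and 727 at 90 min and LYS21 at 268 and 244 FPKM in the controls, 315 and 327 at 45 min and 636 and 664 at 90 min. In the cycle their balance moved with phase. The log2 ratio LYS20/LYS21 was -1.14 ± 0.20 at wild-type RC start and 0.80 ± 0.01 at OX mid, and -0.36 ± 0.04 in the arp5 libraries labelled RC start, where both genes were highest. LYS21 peaked at 474 and 477 in wild type and 479 and 471 in arp5, and LYS20 at 833 and 831 and 379 and 359. SER3 and SER33 both peaked at wild-type OX mid and were under the threshold at both rapamycin times, with SER3 at 65.3 and 58.6 FPKM in the controls, 34.2 and 32.1 at 45 min and 83.5 and 86.1 at 90 min and SER33 at 143 and 134 FPKM in the controls, 119.7 and 114 at 45 min and 169.5 and 173 at 90 min. SHM1 read 365 and 335 FPKM in the controls, 175 and 187 at 45 min and 207 and 226 at 90 min. The log2 ratio SHM1/SHM2 was 1.96 ± 0.04 at wild-type RC start and -2.81 ± 0.01 at OX mid, so the mitochondrial gene was the higher at the former and the cytosolic gene at the latter.

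**Figure D5:**
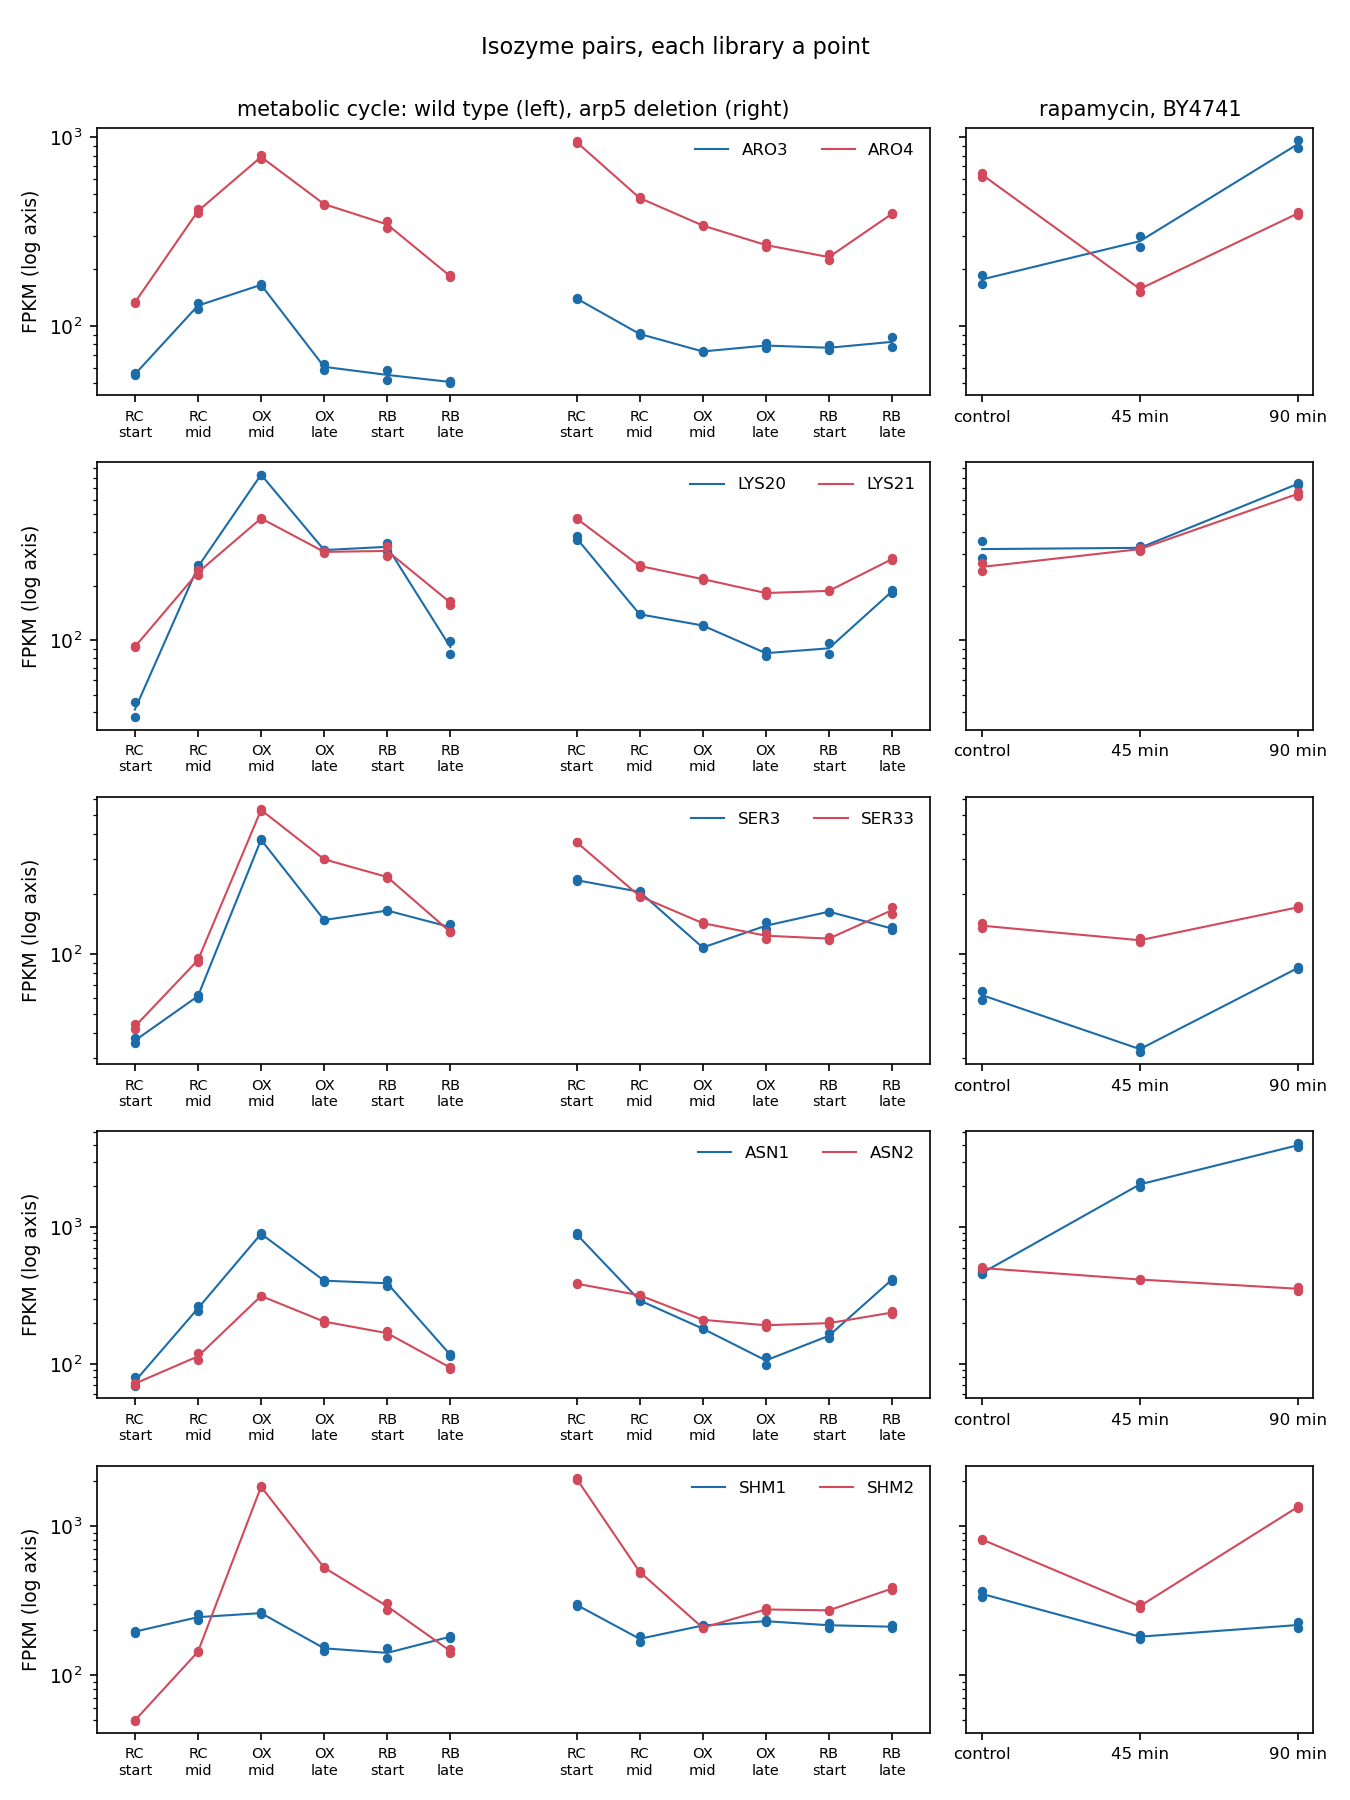
FPKM on a log axis for the 5 isozyme pairs (rows) over the labelled phases in wild type and arp5 (left) and in the rapamycin series (right); points are libraries, lines join group means. ARO3 and ARO4 cross between control and 45 min, ASN1 and ASN2 part after the control, and SHM2 crosses the flat SHM1 in wild type.

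Other genes of these routes were read as a list of 24. Of 7 further synthesis genes, 4 cycled in wild type, against 62.1% of all genes. At 90 min of rapamycin 4 rose and 0 fell, against 18.2% and 16.8% of all genes. Those that rose were ARO8, an aromatic aminotransferase (2.09), HIS2 (1.95), AGX1, which makes glycine from glyoxylate (1.64), and LYS5, which activates Lys2 (1.19). HIS3, another histidine gene, went from 170.1 and 157 to 1038 and 1059 FPKM in BY4741, which carries an inactive remnant of it. Of 8 regulator genes 4 cycled in wild type, against the same 62.1% of all genes. Among the 4, BAS1 spanned 3.24 with its maximum at OX mid and LYS14 spanned 1.63. With rapamycin LYS14 rose by 1.74 and ARO80, activator of aromatic breakdown, by 1.99 at 90 min. BAS1 fell by 1.80 at 45 min, from 53.5 and 52.7 to 14.7 and 14.4 FPKM, and stood at -0.55 at 90 min. GCN4 mRNA was not called at either time, at 1919.6 and 1813 FPKM in the controls, 1306 and 1414 at 45 min and 2277 and 2502 at 90 min, and spanned 0.71 over the wild-type cycle.

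All 9 genes of amino acid breakdown and glycine cleavage cycled in wild type, against 62.1% of all genes. CHA1 and GCV3 passed the range threshold narrowly, with wild-type phase means from 3.31 to 7.69 and from 403 to 810 FPKM. At 90 min 8 of the 9 rose and 1 fell, against 18.2% and 16.8% of all genes. PUT1, which opens proline breakdown, rose by 4.57, PUT2 by 1.87, ARO10 and ARO9, of aromatic breakdown, by 3.87 and 3.73, and CHA1, which degrades serine and threonine, by 2.63. The glycine cleavage genes GCV1, GCV2 and GCV3 rose by 1.86, 2.75 and 1.32. ASP1, an asparaginase, fell: it stood at -2.13, with -2.37 at 45 min. ARO9 had a range of 6.25 in wild type, highest at RC start and lowest at OX late. For comparison, 8 of 9 arginine synthesis genes rose at 90 min, with a median change of 3.55, and 3 of 10 genes of leucine, isoleucine and valine synthesis rose and 3 fell, with a median of 0.30. Their median wild-type ranges were 1.36 and 3.12, beside 2.32 for the 40 members. These differences between lists were not tested.

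ATAC signal at the members differed between genotypes about as often as at other genes. It was tested on log2(signal + 1) with 12 columns per genotype and a call at an adjusted p under 0.05 with no minimum difference, since the column names carry a genotype and no phase. The libraries of a genotype share cultures and span several phases, so these p-values are too small, and the stretch of each gene that a row covers is not stated there. Of 38 members, 14 were higher and 13 lower in arp5, against 31.2% and 36.1% of the 5193 rows, with a median of 0.04 beside -0.02. LYS12 had the highest difference, 1.29 ± 0.17 (SE), with signal from 77.2 to 287 in wild type (median 123) and from 222 to 501 in the deletion (median 323). Its groups overlapped. HOM3 differed by 0.83 ± 0.07, with signal from 189 to 323 in wild type (median 282) and from 421 to 534 in the deletion (median 472) and no overlap. TRP4 differed by 0.83 ± 0.11, SHM2 by 0.77 ± 0.14 and PRO2 by 0.67 ± 0.07. LYS1 had the lowest difference, -0.57 ± 0.07, with signal from 169 to 238 in wild type (median 209.5) and from 98.2 to 159.6 in the deletion (median 140.1) and no overlap. PRO3 followed at -0.53 ± 0.06 and HIS4 at -0.48 ± 0.07. The groups did not overlap for 7 of the 38 members, LYS1, SER33, HOM2, HOM3, PRO2, PRO3 and ASN1. The share of all rows without overlap was not counted, so this count has no background. In RNA over the cycle, where neither passed the test, LYS1 was also below 0, whereas HOM3 was below 0 in RNA and above it in ATAC.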

How the data were processed

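Gene expression was measured by RNA-seq in 24 libraries of the metabolic cycle and 6 of the rapamycin series, and open chromatin by ATAC-seq in 24 libraries. The authors deposited FPKM values per gene for both RNA sets, 1 table each, and ATAC signal per gene in another table. Bowtie2, Picard, DESeq2 and the build sacCer3 are named, per the submitters' processing notes. Their settings, the read counting and the strand setting are not given in the sources used here. RNA came from a MasterPure extraction, per the labels' protocols. The rapamycin control was taken as the control after its title, although its treatment text names rapamycin. The 24 ATAC columns were assigned to a genotype only.

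FPKM were analysed as log2(FPKM + 1) in the 6510 and 6333 genes that averaged 1 FPKM or more, with limma 3.58.1 in R 4.3.3, with an intensity trend and Benjamini-Hochberg adjustment over all genes tested. Calls needed an adjusted p under 0.05 and a log2 difference or range of at least 1. Fold changes on this scale understate those of low genes. Low values were read as whole reads with a tolerance of 0.1 of a read, and FPKM are not counts, so no count test was run. The ATAC signal was tested as log2(signal + 1) by genotype over 5193 rows. The scripts were tested on simulated data. Alternatives were pseudocounts of 0.1 and 10, no filter, no trend, quantile normalization, each library left out, a replicate block and the arp5 series moved by 2 or 3 phases.

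The 40 members and the other gene lists were chosen with earlier results of these data known. Named with values per library or phase were the 6 members with the widest wild-type range, those not cycling, the isozyme pairs, the 4 highest and 4 lowest differences over the cycle and the 5 largest rises and falls with rapamycin. Coordinates and overlaps are from RefSeq (R64). Protein and promoter sequences, and the planned search of promoters for the Gcn4 motif, were not analysed here. Near-identical copies can share reads.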

Additional observations from a re-analysis of the deposited data

Results flagged for a closer look

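The course over the labelled phases differed between wild type and the arp5 deletion, by the interaction test, for 39 of the 40 members. The widest genotype differences on the log2 scale were 8.50 for SHM2, 6.57 for LYS4, 6.45 for LYS9, 6.08 for LYS12, 6.00 for LYS1 and 5.98 for HOM3. These differences are taken between libraries of the same phase label, and 74.0% of all genes were called by the same test. With the arp5 series moved by 2 phases, the differences of SHM2 ran from 2.43 to -0.47 and those of LYS4 from 1.64 to -0.97. Those of LYS9 ran from 1.38 to -1.21, LYS12 from 1.66 to -1.01, LYS1 from 0.11 to -1.57 and HOM3 from 0.70 to -1.99. How much of each range comes from the phase labels and how much from the genotype was not tested.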

How the results depend on the processing

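Apart from the moves of the arp5 series, most counts stayed within 1.5 times of their value under each alternative. With the arp5 series moved by 2 phases, members higher and lower in arp5 were 11 and 0 at RC start and 5 and 0 at RC mid. They were 0 and 4 at OX mid, 0 and 6 at OX late, 0 and 9 at RB start and 1 and 1 at RB late. With a move of 3, 10 were higher at RC start, and 1 was higher and 3 lower at RC mid. At OX mid 24 were lower with that move, against 28 without a move. At OX late 7 were higher and 0 lower, at RB start 4 were lower and at RB late 2 were higher. With a pseudocount of 10, 5 were higher at RC mid. With 1 library left out, members lower at RC mid ranged from 1 to 2. Under quantile normalization the median member change was 1.16 at 90 min of rapamycin, 1.30 between 45 and 90 min and 0.05 over the cycle. Of 3730 values of single genes and medians, 0 reversed a call, 23 fell below the threshold and 6 moved. Near the threshold with 1 library left out were SER1 at 90 min (0.99), HIS4 (0.99) and LYS21 (0.98 to 0.99) between 45 and 90 min. The ASN2 range in arp5 was 0.997 without arp5 RC start library A and 0.962 without arp5 OX late library B. The PRO3 range of the genotype difference was 0.9996 without arp5 OX late library A and 0.773 under quantile normalization. With a replicate block, the counts were unchanged: 33 members cycled in wild type and 29 in arp5, and 18 rose at 90 min. The letters and numbers do not pair the samples, since deviations of same-letter libraries correlated between -0.12 and 0.19 over 66 pairs of groups and those of rapamycin between -0.0025 and 0.22 over 3. A single culture per genotype limits the cycle results, and ATAC libraries could not be placed in phases.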
